A study of Mus musculus with 2 samples.

Results

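Wnt feedback and target genes, 10 of the 19320 features of the count table, were followed cell by cell in prostate tissue from hARtg mice: Axin2, Nkd1, Notum, Znrf3, Rnf43, Lgr5, Apcdd1, Tnfrsf19, Sp5 and Ascl2. They were chosen by name and role, with earlier results of these data known, and 10 of 10 had a row in the table. In the canonical Wnt pathway, a secreted Wnt protein that engages a Frizzled and an LRP receptor keeps β-catenin from being destroyed, and β-catenin then enters the nucleus and works with TCF/LEF factors on target genes. Many of the targets are brakes on the same pathway, so the amount of their RNA is widely used as a readout of signalling. In the adult prostate, luminal epithelial cells secrete and basal epithelial cells line the ducts beneath them, and stromal cells around the ducts produce Wnt ligands and Wnt modulators.

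The mice carried a human androgen receptor transgene (hARtg) and a membrane-bound fluorescent reporter (mTmG) at the R26 locus, both switched on by a Cre recombinase expressed from the Osr1 locus, so that Cre-recombined cells expressed hARtg and membrane GFP (mGFP). There were 2 samples, 1 library from PIN (prostatic intraepithelial neoplasia) tissue and 1 from PCa (prostatic adenocarcinoma) tissue of this hARtg-Osr1Cre line, both dissociated with enzymes and run on a droplet platform that counts 3' ends. Osr1 is active in the embryonic urogenital sinus, so recombination marks a lineage and not a single adult cell type, and tissue without the transgene was not analysed here. The 2 libraries were deposited as a single table whose cell barcodes end in either of a pair of suffixes, and neither the labels nor the column names tie a suffix to PIN or PCa. The cell number that the study states for PIN equals that of the first suffix, and its number for PCa lies close to that of the other. The mean UMI counts per cell that it states lie close in the same order. Neither was used to assign samples. No cell is therefore assigned to PIN or PCa here, and the suffixes are named barcode set 1 and barcode set 2.

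Set 1 held 6332 cells with a median of 17235 unique molecular identifiers (UMIs, a count of captured RNA molecules) per cell, and set 2 held 9410 cells with a median of 14824.5; 67 barcodes occurred in both sets. After removal of likely doublets, 6177 and 9235 cells were left. The sets differed in makeup. Luminal-like cells made up 19.5% of set 1 (1205 cells) and 82.6% of set 2 (7629 cells), proximal or urethral luminal-like cells 30.3% and 3.57%, basal-like cells 27.5% and 3.92%, and leukocyte-like cells 18.1% and 3.05%. The luminal marker list (Krt8, Krt18, Hoxb13 and others) had a summed level in luminal-like cells of 17397 CPM (UMIs scaled to a common total) in set 1 and 17860 CPM in set 2. In proximal or urethral luminal-like cells it was 18899 CPM and 19492 CPM, so this sum did not set luminal-like cells apart from them. The proximal or urethral list summed to 4267 CPM and 2051 CPM in its own class, and to 5983 CPM and 1956 CPM in basal-like cells. Each stage has 1 library and cells are not replicates, so no p-value was computed. Levels are summed UMIs of a group of cells in CPM, and every 95% interval is exact and covers counting error only. A difference is called higher or lower when the log2 ratio was at least 1 in size (a fold of 2), its interval lay off 0 and the 2 sides held at least 20 UMIs together. A count of members called has the share of all genes called beside it. For counts recomputed under another setting, such as without integration, that share was not computed. UMIs of different genes are not scaled to transcript length, so levels are compared within a gene.

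For orientation, 6 of the members had a RefSeq promoter entry on GRCm38.p6, and the 250 bases before the start in that entry were read. They were searched on both strands for CTTTGAT, which reads ATCAAAG on the opposite strand and is a form of the site that TCF/LEF factors bind, and for the shorter CTTTGA, which CTTTGAT contains and which reads TCAAAG on the opposite strand. Of 32851 promoters of that length, 3.205% held the longer and 13.83% the shorter string. The Sp5 promoter is shown because it held CTTTGA at 204 and at 104 bases before the start, the latter as CTTTGAT, and 1.367% of promoters held at least 2 copies of the shorter string. The second Tnfrsf19 promoter held TCAAAG at 201 bases before the start, as ATCAAAG, and the Axin2 window, the gene most used as a readout of the pathway, held neither string. Capitals mark the matches, each line runs 5' to 3' on the strand of the gene, and a match is a string in the window, not a bound site.
Sp5 promoter, chr2:70474673-70474922, plus strand: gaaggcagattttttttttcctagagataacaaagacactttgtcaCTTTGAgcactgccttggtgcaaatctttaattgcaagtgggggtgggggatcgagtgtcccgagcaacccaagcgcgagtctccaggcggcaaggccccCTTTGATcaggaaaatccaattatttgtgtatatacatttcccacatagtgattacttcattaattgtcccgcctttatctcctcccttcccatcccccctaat
Tnfrsf19 promoter 2, chr14:61037988-61038237, minus strand: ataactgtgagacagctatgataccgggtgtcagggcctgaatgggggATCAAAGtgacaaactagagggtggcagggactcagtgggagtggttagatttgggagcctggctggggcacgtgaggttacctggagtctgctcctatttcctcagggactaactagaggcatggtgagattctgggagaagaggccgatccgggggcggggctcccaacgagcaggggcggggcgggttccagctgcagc
Axin2 promoter, chr11:108920099-108920348, plus strand: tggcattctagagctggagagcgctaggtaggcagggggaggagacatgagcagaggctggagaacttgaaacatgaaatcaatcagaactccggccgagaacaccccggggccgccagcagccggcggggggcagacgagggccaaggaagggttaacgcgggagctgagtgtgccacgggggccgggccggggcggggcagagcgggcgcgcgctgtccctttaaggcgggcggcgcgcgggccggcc
The Nkd1, Rnf43 and Ascl2 windows and the first Tnfrsf19 promoter held neither string. The Axin2 and Nkd1 windows lay inside the annotated genes, which begin at 108917828 and 88521342. The bases before those positions were not read. Lgr5, Notum, Znrf3 and Apcdd1 were not matched.

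Between the barcode sets, 9 of the 10 members were higher in the luminal-like cells of set 2 and none was lower, beside 13.7% of the 14891 genes tested that were higher and 20% that were lower. The median log2 ratio of set 2 over set 1 was 3.84 over the members and -0.14 over all genes tested. hARtg itself was 1521 CPM in set 2 and 283 CPM in set 1 (log2 ratio 2.43), and mGFP moved with it (2.54). The luminal-like cells of set 1 were the deeper ones, with a median of 29192 UMIs against 16599. The share of these differences that belongs to the library, to the tissue stage and to the cell subtypes present cannot be told apart.

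Among the cytoplasmic brakes, Axin2, a scaffold of the complex that destroys β-catenin, was at 185 CPM (95% interval 183 to 187) in luminal-like cells of set 2 and at 12.3 CPM (11.2 to 13.4) in set 1, a log2 ratio of 3.92 (3.79 to 4.05). Nkd1, which binds Dishevelled, was at 259 CPM (257 to 262) and 9.33 CPM (8.4 to 10.3), a log2 ratio of 4.80 (4.65 to 4.95). Both levels in set 2 lay far outside the counting intervals of set 1.

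Of the brakes that act at or outside the cell surface, Notum, a secreted enzyme that strips the lipid from Wnt proteins, was at 1.33 CPM in set 1 and 89.3 CPM in set 2 (log2 ratio 6.07, 5.68 to 6.50). Apcdd1, a membrane protein that binds Wnt and LRP5, was at 0.637 CPM and 20.5 CPM (5.01, 4.45 to 5.64). Znrf3 and Rnf43 are related ubiquitin ligases that remove Frizzled receptors from the membrane. Znrf3 was at 8.36 CPM in set 1 and 97.1 CPM in set 2 (3.54, 3.38 to 3.70), and Rnf43 at 2.04 CPM and 27.8 CPM (3.77, 3.45 to 4.11). The 4 genes thus stood at under 10 CPM in set 1 and at over 20 CPM in set 2.

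Lgr5, a receptor for R-spondins and a stem cell marker in the intestine, was at 0.968 CPM in set 1 and 28.8 CPM in set 2 (log2 ratio 4.89, 4.44 to 5.40). Tnfrsf19, a TNF receptor family member, had the smallest called ratio, with 9.43 CPM and 36.7 CPM (1.96, 1.81 to 2.12). Ascl2, a transcription factor of intestinal stem cells, was scarce in both sets, at 0.102 CPM (4 UMIs) and 0.683 CPM (113 UMIs), and its log2 ratio of 2.74 had an interval of 1.35 to 4.64. Sp5, a transcription factor that acts on Wnt target genes, was the member not called, at 20.2 CPM in set 1 and 22.6 CPM in set 2 (0.16, 0.05 to 0.27).

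**Figure D1:**
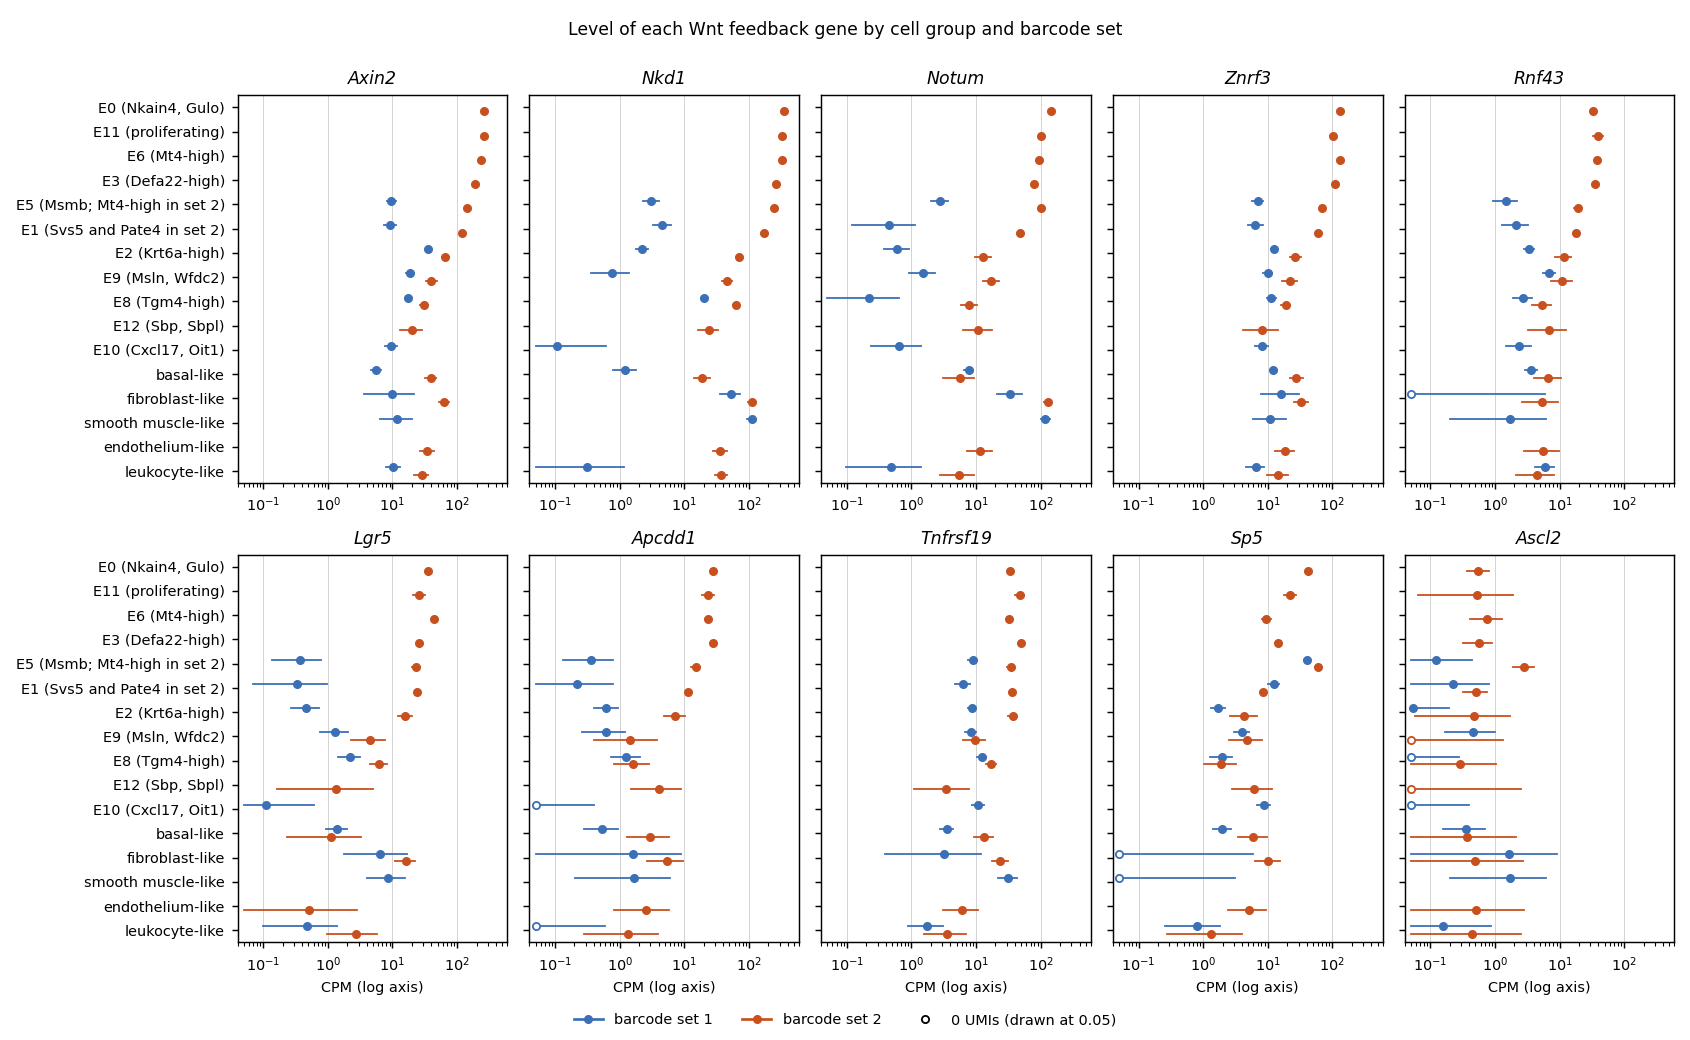
Level of each member (CPM, log axis) in each epithelial cluster or cell class of barcode set 1 (blue) and barcode set 2 (orange); bars are 95% counting intervals and open points, drawn at the left edge, are 0 UMIs. Axin2, Nkd1, Notum and Znrf3 are high across most luminal-like clusters of set 2, and Sp5 stands out in E5 of both sets and E0 of set 2.

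The difference was also seen inside single clusters that both sets filled, which were made without the members among the genes used for clustering. The cells of a shared cluster were not alike in the 2 sets, however. E5 was led by Msmb, a secreted prostate protein, at 39927 CPM in set 1 and 823 CPM in set 2, and E1 was led by the seminal vesicle gene Svs5, at 1036 CPM in set 2 and 0 UMIs in set 1. In E5, 9 of 10 members were higher in set 2 (13.5% of genes tested were higher and 16.6% lower), with a median log2 ratio of 4.21. There, Nkd1 was at 245 CPM against 3.11 CPM (log2 ratio 6.30) and Axin2 at 142 CPM against 9.64 CPM (3.88), with Sp5 at 59 CPM against 40 CPM (0.56). In E1, 8 of 10 were higher (13.1%) and none lower (15.7%), with a median of 3.47, and Sp5 was at 8.56 CPM against 12.4 CPM (-0.53). In E2, led by Krt6a and Clu and counted among the proximal or urethral luminal-like cells, 8 of 9 tested were higher (12.3%) and none lower (14.3%), and Axin2 was the exception at 65.5 CPM against 35.6 CPM (0.88, 0.69 to 1.07).

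The ratios were smaller in the remaining shared clusters. In E8, the Tgm4-high cluster, 4 of 9 were higher (5.22%) and none lower (9.02%), with a median log2 ratio of 0.79: Notum (7.91 CPM against 0.224 CPM, log2 ratio 5.14), Nkd1 (63.5 CPM against 20.4 CPM, 1.63), Lgr5 (1.51) and Rnf43 (1.01). A Notum UMI was found in 0.604% of the E8 cells of set 1, so the Notum ratio rested on few UMIs. Axin2 in E8 was at 30.5 CPM against 17.6 CPM (0.79, 0.52 to 1.07) and was not called. In E9, led by Msln and Wfdc2, 5 of 8 were higher (6.64%) and none lower (4.1%), with a median of 1.12. Over the whole proximal or urethral luminal-like class, 7 of 9 were higher (11%) and none lower (7.55%), with Axin2 at 55.6 CPM against 27.8 CPM (log2 ratio interval 0.84 to 1.16), just short of the fold. Without integration of the sets before clustering, 3 members were higher in that class.

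**Figure D2:**
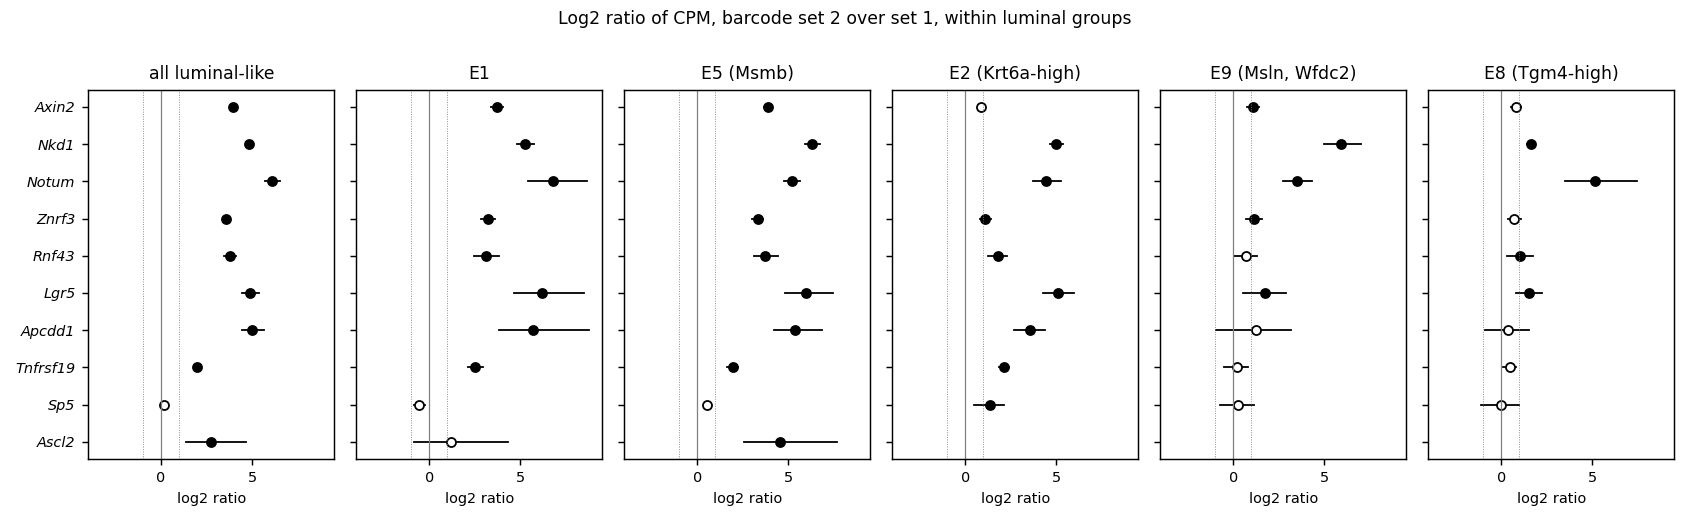
Log2 ratio of CPM, set 2 over set 1, for each member in all luminal-like cells and in clusters that both sets fill. Points are ratios, bars are 95% counting intervals, filled points are past the fold; ratios are largest in E1 and E5 and smallest in E8 and E9, and Sp5 stays near 0 in most panels.

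Within set 2, the members were not spread evenly over the luminal epithelium. The cluster E0, whose leading genes were Nkain4, Gulo and Ces1d and which also listed Notum among its top 10 genes, had Axin2 at 257 CPM, Nkd1 at 348 CPM, Notum at 143 CPM and Znrf3 at 131 CPM over 2669 cells. The proliferating cluster E11 (150 cells) had Axin2 at 265 CPM (249 to 282), not apart from E0 by its interval. E6, an Mt4-high cluster, had 236 CPM, the Defa22-high cluster E3 189 CPM, E5 142 CPM and the Pate4-high cluster E1 121 CPM. The lowest levels of Axin2 were in E2 (65.5 CPM), E9 (40.1 CPM), E8 (30.5 CPM) and E12, led by Sbpl (19.7 CPM). Sp5 had another order, with 59 CPM in E5, 42 CPM in E0, and 22.3 CPM in E11 as the next level.

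Against the rest of the luminal epithelium of set 2, the Defa22-high cells (1333 cells; Defa22 encodes an alpha-defensin) had no member past the fold, beside 2.46% of genes tested that were higher and 10.6% that were lower. Rnf43 was at 35.3 CPM against 25.4 CPM (log2 ratio 0.47), Apcdd1 at 28.2 CPM against 18.1 CPM (0.64), Tnfrsf19 at 49.2 CPM against 33.4 CPM (0.56) and Sp5 at 14.3 CPM against 23.5 CPM (-0.71). In the Mt4-high cells (1214 cells; Mt4 encodes a metallothionein), 1 member was higher (3.02%) and none lower (9.13%). It was Ascl2, at 1.52 CPM against 0.508 CPM (1.58, 0.99 to 2.15). The Mt4-high cells were E5 (403 cells) and E6 (811 cells), and Ascl2 was at 2.82 CPM (28 UMIs) in E5 and 0.76 CPM (13 UMIs) in E6. In the Pate4-high cells (1908 cells; Pate4 is a secretory gene of the seminal vesicle), none was higher (3.44%) and 2 members were lower (5.61%), Notum at 48.5 CPM against 100.1 CPM (-1.05) and Sp5 at 8.56 CPM against 26.9 CPM (-1.65), and the median over the members was -0.74.

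The other subgroups of set 2 stood clearly lower. In the Krt6a-high cells (319 cells; Krt6a is a keratin), 8 members were lower (5.73%) and none higher (15.0%), with a median log2 ratio of -1.85, from Rnf43 at 11.3 CPM against 27.8 CPM (-1.29) to Notum at 14.7 CPM against 89.2 CPM (-2.60). In the Tgm4-high cells (280 cells; Tgm4 is a transglutaminase secreted by the anterior prostate), 9 were lower (13.5%) and none higher (15.0%), with a median of -2.37, and Apcdd1 (1.61 CPM against 20.7 CPM, -3.68), Sp5 (-3.57) and Notum (-3.50) moved furthest. The Tgm4-high cells also had less hARtg, at 305 CPM against 1550 CPM (-2.34). When cells were tagged by their own UMIs of Tgm4 and not by cluster, 2 of the members were lower in the Tgm4-high cells. The share of all genes lower under that rule was not computed. Tagged in the same way by Krt6a, 46 cells of set 2 were found, fewer than the 50 required, and they were not compared.

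In set 1, 2 of the subgroups were present, and their makeup was not that of set 2. The Krt6a-high cells of set 1 were E2 alone (Krt6a at 1403 CPM), with E9 (672 CPM) among the other luminal epithelium, whereas those of set 2 were E2 (205 CPM) and E9 (306 CPM). The Krt6a-high cells of set 1 (1191 cells) had Axin2 at 35.6 CPM (33.7 to 37.6) against 13.2 CPM in other luminal epithelium (log2 ratio 1.43, 1.30 to 1.56), the highest Axin2 level of the epithelial clusters of set 1. It was the only member higher there, beside 4.06% of genes tested, and 3 were lower (12.9%): Nkd1 (-1.46), Notum (-1.09) and Sp5 at 1.71 CPM against 15 CPM (-3.14). hARtg was low in these cells, at 43.3 CPM. The Tgm4-high cells (497 cells) had 3 members higher (5.61%), Nkd1 at 20.4 CPM against 2.18 CPM (3.23, 2.96 to 3.51), Lgr5 (2.06) and Apcdd1 (1.47, or 0.67 without integration), and 2 lower (11.8%), Notum (-2.35) and Sp5 (-2.55). Sp5 reached 40 CPM in E5.

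hARtg-rich luminal-like cells were compared with luminal-like cells without an hARtg UMI in the same set. In set 2, 8 of 9 members tested were higher in the 6935 cells with at least 5 hARtg UMIs than in the 159 cells with 0 (10.4%) and none was lower (14.1%), with a median log2 ratio of 2.17. Axin2 was at 191 CPM against 19.3 CPM (log2 ratio 3.31), Notum at 91.4 CPM against 20.5 CPM (2.16) and Nkd1 at 264 CPM against 92.5 CPM (1.52). Of the hARtg-zero cells, 102 were in the Tgm4-high cluster, and within it (77 against 102 cells) 5 of 7 were higher (6.08%) and none lower (1.08%), with Axin2 at 64.9 CPM against 10.4 CPM (2.64), Notum (3.42), Lgr5 (2.12), Znrf3 (1.97) and Rnf43 (1.42). The hARtg-rich cells there were deeper, with a median of 28405 UMIs against 18913.5, and the part of depth in this was not tested. When cells were first thinned to equal depth and split at 1 hARtg UMI, 1 member was higher in luminal-like cells of set 2.

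In set 1, no member was higher in the 374 hARtg-rich cells (7.47% of genes tested) and 3 were lower than in the 585 hARtg-zero cells (6.94%). Nkd1 was at 4.97 CPM against 14.1 CPM (log2 ratio -1.51), Lgr5 at 0.35 CPM against 1.42 CPM (-2.02) and Tnfrsf19 at 5.6 CPM against 11.5 CPM (-1.04). Axin2 was at 8.82 CPM against 14.5 CPM (-0.72, -1.04 to -0.40) and was not called. Without integration this comparison was not made in set 1, since a side held fewer than the 50 cells required. In the Tgm4-high cluster E8 of set 1, 21.7% of cells held an hARtg UMI before thinning, beside 51.5% of all luminal-like cells. Nkd1 and Lgr5 were higher in E8 than in other luminal epithelium of set 1. The part of cluster makeup in these hARtg ratios was not tested. Within E5 of set 1, no member was past the fold (4.9% of genes tested were higher and 2.34% lower), and Axin2 was at 9.57 CPM against 9.46 CPM (0.02, -0.57 to 0.60).

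**Figure D3:**
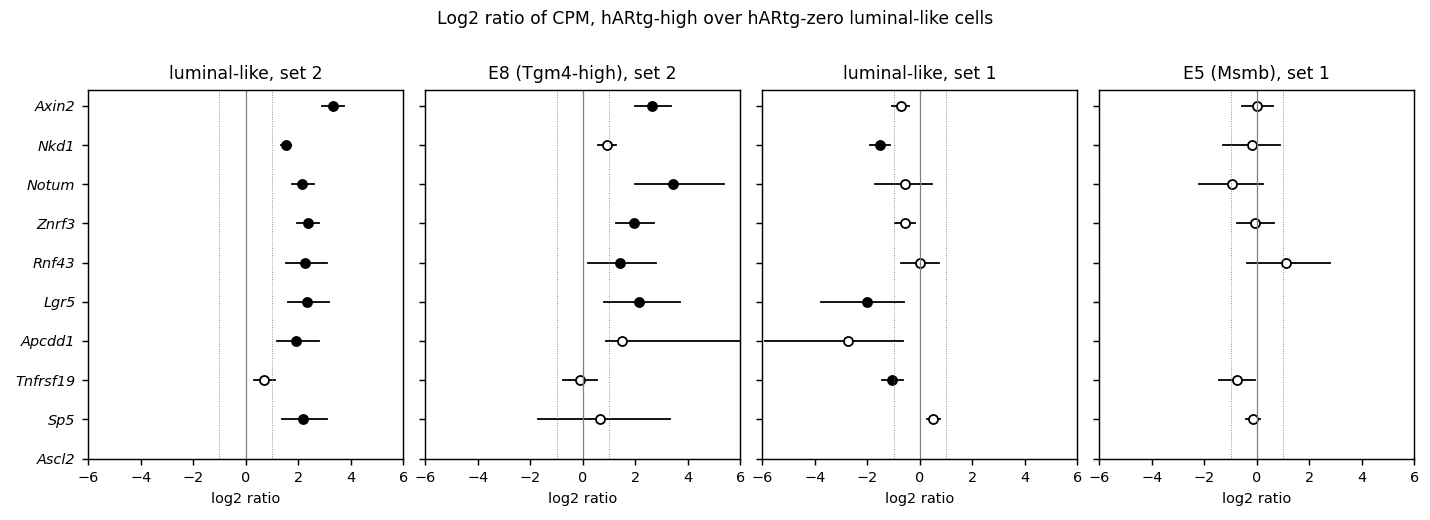
Log2 ratio of CPM, luminal-like cells with at least 5 hARtg UMIs over those with 0, for each member. Bars are 95% counting intervals and filled points are past the fold; in set 2 most members lie to the right of 0, in E5 of set 1 they lie near 0.

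To compare single cells, each cell was thinned to 3000 UMIs. Axin2 was then detected in 38.4% (37.3 to 39.5) of luminal-like cells of set 2 and in 3.28% (2.34 to 4.45) of set 1, beside 79.0% and 25.9% before thinning. Nkd1 was found in 50.9% and 3.36%, Notum in 23.5% and 0.252%, and Znrf3 in 24.7% and 2.27%. For comparison with a cell type outside the epithelium, leukocyte-like cells of set 2 had a median of 7038.5 UMIs. After thinning, Axin2 was in 5.16% (2.78 to 8.66) of them, Nkd1 in 6.35% and Znrf3 in 2.78%. Notum was detected in 0 of 252, with a floor of 1.19% (3 cells) and an exact upper bound of 1.45%. Before thinning, 3.55% of these cells had Notum. In CPM, these leukocyte-like cells held 12.1% of the hARtg level of luminal-like cells, 15.2% of Axin2, 14.3% of Nkd1 and 6.02% of Notum. In set 1, where luminal-like levels were low, they held 84.3% (64.1 to 109) of the Axin2 level, 78.0% of Znrf3 and 289% of Rnf43, beside 5.17% of hARtg and 1.56% of Msmb, and Axin2 was detected in 4.14% of them after thinning.

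At least 3 of the 10 members were detected together in 28.2% of luminal-like cells of set 2 and in 0.084% of those of set 1. The share was 42.8% in E0, 36.9% in E11, 31.5% in E6, 28.1% in the Defa22-high cells, 23.4% in E5 and 11.3% in the Pate4-high cells. It was 3.46% in the Krt6a-high cells and 1.84% in the Tgm4-high cells. Outside the epithelium it was 5.08% in fibroblast-like (15 of 295), 4.61% in endothelium-like (7 of 152) and 0.397% in leukocyte-like cells (1 of 252). Of the endothelium-like cells, 0.658% had 2 members. The fibroblast-like cells included S8.5, a cluster with more luminal than fibroblast markers. The part of luminal RNA in these shares was not tested.

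**Figure D4:**
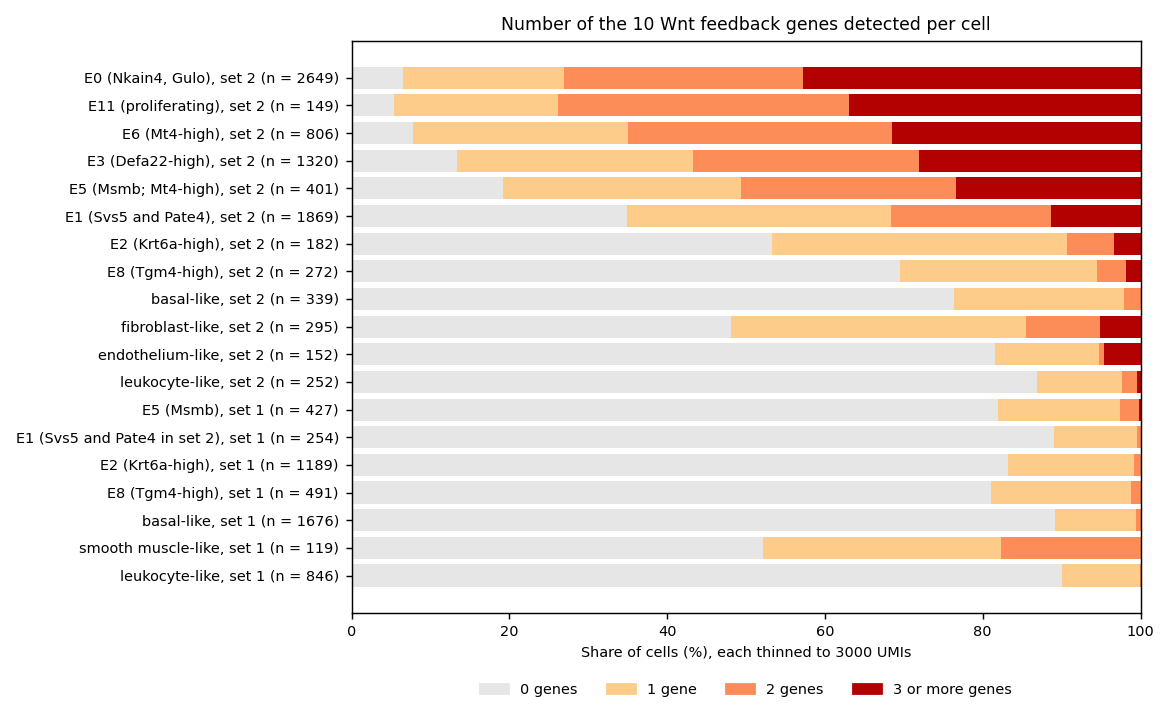
Share of cells (%) in which 0, 1, 2 or at least 3 of the members were detected after thinning to 3000 UMIs, by class or cluster and barcode set. E0, E11 and E6 of set 2 have the largest shares with at least 3.

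Over all luminal-like cells of set 2, most pairs of members were found in the same cell somewhat more often than their separate frequencies give. Axin2 and Nkd1 were detected together in 1699 cells, where independence gives 1474, a ratio of 1.15. Over 38 pairs the ratio had a median of 1.20, from 0.49 for Nkd1 with Ascl2 (4 cells) up to 1.69 for Sp5 with Apcdd1 and 1.58 for Notum with Sp5. Within E0 the median over 36 pairs was 1.07, Axin2 with Nkd1 was at 1.04 and Notum with Sp5 at 1.09. In other clusters of set 2 the median was 0.95 in E11 (16 pairs), 1.05 in E6 and 1.10 in the Defa22-high cells. It was 1.21 in the Pate4-high cells (Rnf43 with Znrf3 at 2.17, in 30 cells) and 1.30 in E5, so the excess within a cluster was not smaller everywhere than over all luminal-like cells.

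In basal-like cells, 6 of 9 members were higher in set 2 than in set 1 (5.69%) and none was lower (5.3%). Axin2 was at 38.9 CPM against 5.62 CPM (log2 ratio 2.79, 2.40 to 3.18) and Nkd1 at 19.1 CPM against 1.21 CPM (3.97). Notum was at 5.61 CPM against 7.69 CPM (-0.46, -1.32 to 0.31). As a share of the luminal-like level in set 2, basal-like cells held 21.0% (17.2 to 25.5) of Axin2, endothelium-like cells 18.6% (14.4 to 23.6) and leukocyte-like cells 15.2% (11.7 to 19.5), and these intervals overlap. For Nkd1 the share was 7.35% in basal-like and 14.3% in leukocyte-like cells, and for Notum 6.29% and 6.02%, so neither basal-like level stood above that of leukocyte-like cells. With the called doublets kept, 9 members were higher in basal-like cells of set 2. Leukocyte-like cells themselves had 3 of 4 members higher in set 2 (12.2%) and none lower (28.9%). Nkd1 was at 37.2 CPM against 0.318 CPM (2 UMIs, log2 ratio 6.87), Axin2 at 28.2 CPM against 10.3 CPM and Znrf3 at 14.3 CPM against 6.52 CPM. hARtg there was at 184 CPM against 14.6 CPM. The class was not made up alike in the sets. In set 1, 731 of its 1117 cells were in G6, led by Ccl5, and in set 2, 236 of 282 were in G12, led by Lyz2 and C1qa. Free RNA in set 2 was not tested as a part of these differences, nor was this makeup.

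In stroma of either set, Notum reached levels above its own in luminal-like cells of that set. The smooth muscle-like cells of set 1 (121 cells) held more fibroblast markers (a summed 8822 CPM) than smooth muscle markers (5669 CPM). They had Notum at 119 CPM (99.7 to 140) against 1.33 CPM in luminal-like cells (log2 ratio 6.48) and Nkd1 at 110 CPM against 9.33 CPM (3.56). Lgr5 (8.47 CPM, 3.13) and Tnfrsf19 (31.3 CPM, 1.73) completed the 4 members that were higher (21.6%), beside 1 that was lower (20.1%). Axin2 was at 11.9 CPM against 12.3 CPM (-0.05, -0.93 to 0.71), and Sp5 had 0 UMIs, which puts it at least 2.99 lower on the log2 scale. Luminal markers in these cells summed to 277 CPM and hARtg was at 16.1 CPM. After thinning, Notum was detected in 24.4% and Nkd1 in 23.5% of them. Against basal-like cells, 5 of 7 were higher (26%) and none lower (15.5%). A cluster of set 2 that was left unnamed, S8.3 (82 cells), held more smooth muscle markers (12743 CPM) than fibroblast markers (7129 CPM). Notum was at 9.52 CPM (3.49 to 20.7) in S8.3, and Nkd1 at 55.5 CPM.

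The fibroblast-like cells of set 1 (80 cells) had 3 members higher than luminal-like cells (17.8%) and 1 lower (15.6%), Sp5 with 0 UMIs. The higher ones were Notum at 34.2 CPM (21 UMIs, log2 ratio 4.69), Nkd1 at 52.1 CPM (32 UMIs, 2.48) and Lgr5 at 6.51 CPM (4 UMIs, 2.75). Of these cells, 48 were in S8.2, where Notum was at 3.38 CPM (0.0855 to 18.8), Nkd1 at 13.5 CPM and Lgr5 at 13.5 CPM. Another 11 were in S8.5, the cluster rich in luminal markers. Against basal-like cells of set 1, the same 3 of 6 tested were higher (20%) and none lower (9.57%). In set 2 (358 cells), none was higher than in luminal-like cells (22.3% of genes were) and 6 were lower (13.4%), while Notum was at 128 CPM against 89.3 CPM (0.52). Against basal-like cells of set 2, 3 of 8 were higher (25.9%) and none lower (13%), Notum (4.51), Lgr5 (3.84) and Nkd1 (2.56). With the called doublets kept, these were 2.88 for Notum and 1.52 for Nkd1, and without the cluster S8.5, described next, 2 members were higher. Among the fibroblast-like clusters of set 2, Notum ranged from 0 UMIs in S8.6, which had Lgr5 at 36.6 CPM, over 11.1 CPM in S8.2, to 198 CPM in S8.4 and 241 CPM (203 to 283) in S8.0, where Axin2 was at 6.64 CPM and Nkd1 at 59.8 CPM.

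Of 7 members tested in fibroblast-like cells, 6 were higher in set 2 than in set 1 (6.51%) and none was lower (5.7%). The cluster S8.5 (47 cells) held more luminal markers (13694 CPM) than fibroblast markers (4984 CPM) and hARtg at 1266 CPM. Without it, 1 member was higher, and Axin2 in set 2 was at 20.8 CPM and not 63.2 CPM, Nkd1 at 65.2 CPM and not 113 CPM, and Notum at 139.5 CPM and not 128 CPM. The endothelium-like cells of set 2 (170 cells) had 9 members lower than luminal-like cells (17.4%) and none higher (25.4%), and against basal-like cells Notum was higher (1.05; 28.2%) and Tnfrsf19 lower (-1.15; 13.8%).

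**Figure D5:**
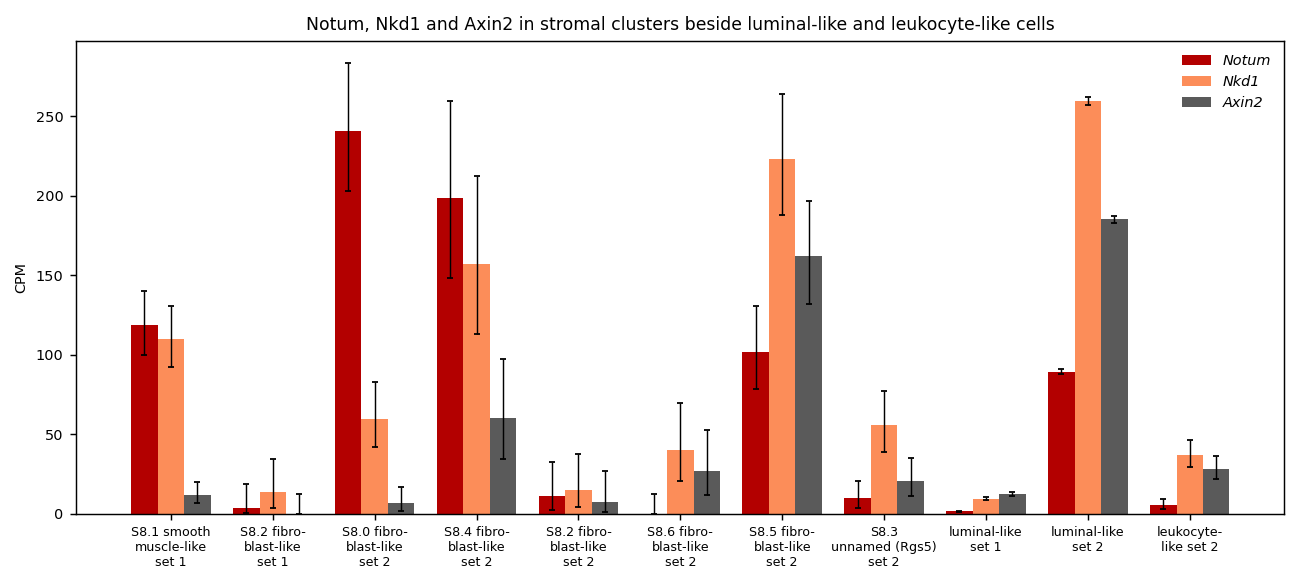
Level (CPM, bars with 95% counting intervals) of Notum, Nkd1 and Axin2 in stromal clusters, luminal-like cells of each barcode set and leukocyte-like cells of set 2. Notum is highest in S8.0, at 241 CPM, with Axin2 at 6.64 CPM there, and S8.5 stands close to the luminal-like cells of set 2 for the 3 genes.

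Other genes of the pathway were taken from a list of 93 ligands, receptors, inhibitors, cytoplasmic and nuclear factors and targets, of which 87 were in the table. Between luminal-like cells of set 2 and set 1, 24 of 69 tested were higher and 13 lower (13.7% and 20% of all genes tested), with a median log2 ratio of 0.09. The ligand Wnt6 had 110 CPM in set 2 and 0 UMIs in set 1, at least 10.49 higher on the log2 scale. The secreted Wnt-binding inhibitor Wif1 was at 378 CPM against 0.714 CPM (9.05, 8.52 to 9.64), and Nkd2, the paralogue of Nkd1, at 15.8 CPM against 0.051 CPM (2 UMIs; 8.27, 6.42 to 11.32). The ligand Wnt16 was at 6.66 CPM against 0.0255 CPM (1 UMI; 8.03, 5.55 to 13.33), and Dkk2, a secreted ligand of LRP receptors, had 0 UMIs in set 1 (at least 6.66). The lowest ratios were those of the receptor Fzd1 (-3.81), the transporter Slc12a2 (-3.55), the nuclear cofactor Pygo1 (-3.50), the R-spondin receptor Lgr4 (-3.14, at 2.83 CPM against 25 CPM) and Fzd10 (-2.66). By role, 7 ligands were higher and 1 lower, 5 inhibitors were higher and 1 lower, and 3 receptors were higher and 6 lower.

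In the Tgm4-high cells of set 2, 7 of 67 tested were higher (15.0% of all genes) and 25 lower (13.5%) than in other luminal epithelium. The receptors Fzd1 (3.35) and Lgr4 (23.9 CPM against 2.65 CPM, 3.17) and Pygo1 (4.02) were among the highest, and the ligands Wnt6 (6.15 CPM against 110 CPM, -4.17) and Wnt5b (-3.52) and the target Bambi (-3.44) among the lowest. In the hARtg comparison of set 2, 18 of 65 were higher (10.4%) and 2 lower (14.1%), Fzd1 (-4.36) and Lgr4 (-2.94). In fibroblast-like cells of set 2, 33 of 71 were higher (22.3%) and 7 lower (13.4%) than in luminal-like cells, led by secreted Wnt inhibitors, Frzb (38.4 CPM), Sfrp4 (215 CPM) and Sfrp1 (533 CPM), with the R-spondin Rspo3 (87.4 CPM) and the ligand Wnt2 (192 CPM). The smooth muscle-like cells of set 1 had 36 of 68 higher (21.6%) and 7 lower (20.1%), among them Wif1 at 1796 CPM, Sfrp2 at 542 CPM, Rspo3 at 315 CPM and Wnt2 at 295 CPM.

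Likeness of pattern was described by Pearson's r of log2(CPM + 10) over 26 groups of cells (a class or cluster within a barcode set), which share libraries and, in part, cells. Between members, Axin2 and Znrf3 had r of 0.96, Nkd1 and Notum 0.90, Axin2 and Notum 0.72, and Axin2 and Sp5 0.54. Among 9784 other genes, those most like Axin2 were Gm43076 (0.966), Clic6 (0.961) and Mybpc1, those most like Nkd1 were Gfra1 (0.957), Mt3 (0.952) and Csrp2 (0.947), and Clmp was the most like Notum (0.952). Sp5 had its nearest gene in Prom2 at 0.831.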

How the data were processed

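The authors aligned 3' v2 droplet libraries with Cell Ranger 3.1.0 to mm10 with the hARtg and mGFP sequences added, filtered cells, and deposited natural log values, ln(1 + 10000 × UMI count / cell total). The features named ARQ and EGFP were read as hARtg and mGFP. From these values the counts were recovered (100% whole within a relative tolerance of 0.001) and summed. Doublets were scored with Scrublet in scanpy 1.11.5; its automatic limit called 0, so a limit of 0.25, set after the scores were seen, removed 155 and 175 cells. Cells were clustered in Seurat 5.3.0 (R 4.3.3; integration of 20 dimensions, 30 principal components, 2000 features, resolution 0.5) without 99 genes (members, other pathway genes, hARtg and mGFP), epithelium again alone. A class took its name from marker lists, a luminal subgroup from the subgroup gene with the highest log2((CPM + 10)/(CPM of the other luminal cells + 10)), where that was at least 1 and the gene at 50 CPM or more. Stromal sub-clusters (S8) and the rule that left E13, rich in immune genes, unnamed were added after the data were seen. The named genes are the 10 members, the 3 genes most like each member with 200 UMIs or more, and up to 5 highest and 5 lowest other pathway genes per comparison. The members and lists were chosen with earlier results of these data known. Samples are 1 library per group, so cells gave no test. Intervals are exact (Poisson, Clopper-Pearson, conditional binomial; scipy 1.17.1), and a 0 was set to a floor of 3 UMIs for bounds. The rule for calling a difference was tried on simulated UMI sums with known fold changes. These had counting error only, with no variation between cells or libraries. Apcdd1 is on chromosome 18 and no sequence of it was read.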

Additional observations from a re-analysis of the deposited data

Results flagged for a closer look

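Several members differed in opposite directions in the same contrast of the 2 barcode sets. These differences of log2 ratios, set 2 minus set 1, were not tested, since the libraries have no replicates. In Krt6a-high against other luminal epithelium, Axin2 was higher in set 1 and lower in set 2, a difference of -3.17; the Krt6a-high cells were E2 in set 1 and E2 with E9 in set 2. In Tgm4-high against other luminal epithelium the difference was -5.26 for Nkd1, -5.15 for Apcdd1 and -4.30 for Lgr5, each higher in set 1 and lower in set 2. In fibroblast-like against luminal-like cells it was -3.68 for Nkd1. In hARtg-high against hARtg-zero luminal-like cells it was 4.34 for Lgr5 and 3.02 for Nkd1, each lower in set 1 and higher in set 2. Without integration that contrast was not made in set 1, so these differences have no value there. In the first 2 contrasts, the cells compared with the subgroup also differed between the sets, since E0, E3, E6 and E11 lay almost wholly in set 2. For the hARtg contrast of set 1, 21.7% of cells in the Tgm4-high cluster E8 held an hARtg UMI before thinning. E8 was also where Nkd1 and Lgr5 were higher than in other luminal epithelium of set 1. In set 2, most hARtg-zero cells lay in E8, where both genes were lower. The part of this makeup was not tested.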

How the results depend on the processing

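Of 241 recomputed values over 36 results, 216 were labelled unchanged, 24 moved, 1 fell short of the fold and 0 reversed. A ratio was unchanged if its call was kept, whatever its size, and only a called ratio could be labelled reversed. A count was unchanged within a set fold, and other values within their counting interval. Sp5, set 2 over set 1 in luminal-like cells, was not called and went from 0.16 to -0.25 without integration. The causes of the changes were not tested. Without integration, the hARtg contrast of set 1 was not recomputed, since a side held fewer than 50 cells. Without integration, the members lower in Pate4-high cells of set 2 were 4 in place of 2, those lower in Krt6a-high cells of set 1 were 1 in place of 3, those higher in Mt4-high cells of set 2 were 2 in place of 1, those higher in set 2 over set 1 were 3 in place of 7 in proximal or urethral luminal-like cells and 2 in place of 6 in fibroblast-like cells, and Axin2 in luminal-like cells was 10.7 CPM in set 1 and 182 CPM in set 2. At a resolution of 1.0, Mt4-high gave 2, fibroblast-like cells 2, the members lower in hARtg-high cells of set 1 were 5 in place of 3, and Axin2 in set 1 was 15.0 CPM. With doublets kept, Pate4-high gave 1 and basal-like cells of set 2 over set 1 gave 9 in place of 6. Fibroblast-like over basal-like cells of set 2 then gave 2.88 for Notum and 1.52 for Nkd1. With every cell given the same weight, Pate4-high gave 4. With subgroups called cell by cell, Pate4-high gave 1, Mt4-high 2 and Tgm4-high of set 2 gave 2 in place of 9. Krt6a-high of set 2 was not recomputed under that rule, which left 46 cells. With genes above 1% of UMIs left out of the scaling, Axin2 was 197 CPM in set 2 and was detected in 42.1% of cells in set 2 and 4.57% in set 1. Thinning to 6000 UMIs gave 58.4% and 5.94%, and a ratio of 1.10 for Axin2 with Nkd1. A split at 1 hARtg UMI after thinning gave 1 member higher in set 2 in place of 8. Chosen after the data were seen, leaving out the luminal-rich fibroblast-like cluster gave 1 in place of 6. The Apcdd1 ratio in Tgm4-high cells of set 1 was 0.67 without integration. No paired analysis was possible because there is 1 library per group, with no replicate number. Depth limits Ascl2 and the small stromal clusters.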
